A study of Mus musculus with 8 samples.

Results

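The naive pluripotency transcription factors described here are 10 genes, Klf2, Klf4, Klf5, Tfcp2l1, Prdm14, Zfp42, Nr0b1, Nr5a2, Gbx2 and Tbx3, taken by name from a list of regulators of the naive state, out of 24921 genes in the count tables. No measured value entered the rule, but the list was drawn up with earlier results of these data known. Poly(A)-selected RNA of mouse V6.5 embryonic stem (ES) cells, a C57BL/6-129 hybrid line kept in 2i medium on gelatin per the labels' protocols, was sequenced in 8 libraries. The OCT4-FKBP line, V6.5 cells whose OCT4 is fused to FKBP, a tag that lets a dTAG compound hand the protein to the cell's degradation machinery, received DMSO for 24 h in 2 libraries and the compound labelled dTag9 for 24 h in 2 others. Untagged V6.5 cells, called WT in the titles, had normal LIF in 2 libraries and had LIF withdrawn for 5 days in 2 others. All 4 groups share the V6.5 background, no group has untagged cells with the compound, and the labels say neither whether the tagged line is 1 clone nor whether the replicates are separate cultures. The p-values therefore rest on library-to-library spread that may be technical only.

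The naive state is the unrestricted pluripotency of the early epiblast, which mouse ES cells keep in culture while a set of transcription factors sustain each other's genes. LIF feeds this network through the gp130 receptor, JAK kinases and STAT3, with Klf4, Tfcp2l1 and Gbx2 among the known STAT3 target genes, and the inhibitors of 2i medium feed it by blocking MEK and GSK3. OCT4, together with SOX2, binds enhancers across the same network. The experiment is thus designed to remove a central factor in one line and an outside signal in the other. OCT4 protein itself is not measured in these RNA libraries.

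Counted reads per library ranged from 7221451 to 11447468, and levels are given in CPM, the count scaled to a common library size after TMM adjustment. Of the 10 factors, 8 have a single RefSeq accession in the tables, while Nr5a2 and Tbx3 have 2 each and are seen only through the sequence that tells their accessions apart, with 76 and 259 reads in all. All 10 passed the filter on low counts. Of the ES cell markers, Sox2, Sall4, Utf1, Tdgf1 and Pou5f1 were read in all 4 groups. Nanog was listed at 0 and Esrrb had 1 read, and both genes have several accessions, so their levels are not measured here. The spread between replicates was largest in WT cells with LIF, where the chi-square over genes was 4.94 per degree of freedom against 1.85 to 3.12 in the other groups.

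All 10 factors were lowest in WT cells without LIF, and in all 10 both of those libraries lay below the libraries of the next group. Cells with the compound were second lowest for 9 factors. The exception was Tbx3, whose libraries with the compound overlapped those of WT cells with LIF. The highest mean was in the tagged line with DMSO for 8 factors, although for Klf2 its libraries overlapped those of WT cells with LIF, and in WT cells with LIF for Nr0b1 and Nr5a2. The share of all tested genes with this order of the 4 groups was not computed, so these counts are a description only. In bulk RNA, fewer cells in the naive state and less RNA per cell cannot be told apart.

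**Figure D1:**
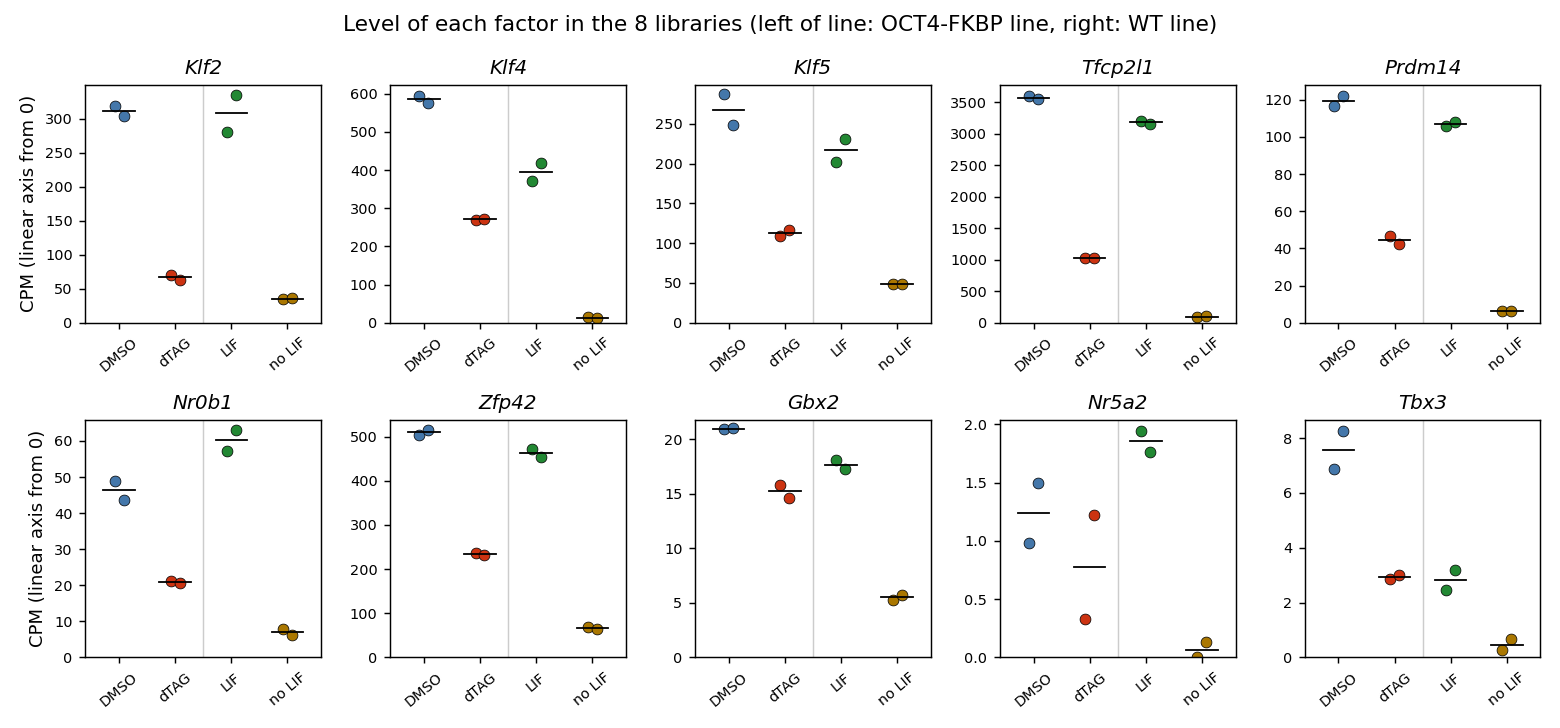
Level of each factor in CPM (linear axes from 0, a scale of its own for each gene) in the 8 libraries; points are libraries, bars the mean of 2. The libraries without LIF are the lowest in all 10 panels, and for Tbx3 the libraries with the compound lie within the range of WT cells with LIF.

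In edgeR's quasi-likelihood test over 10311 genes, 9 of the 10 factors fell with the compound, against 20.3% of all tested genes called lower, and none was called higher, against 20.1%. Their median log2 fold change was -1.18, while that of all tested genes was 0.00. Without LIF all 10 fell, against 34.4% of tested genes called lower and 34.0% called higher, with a median of -3.08 beside -0.02 for all genes. The 2 comparisons use separate control libraries. Libraries of the 2 groups did not overlap for 9 factors with the compound and for all 10 without LIF, where 35.4% and 41.2% of tested genes were lower without overlap.

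The Kruppel-like factors Klf2, Klf4 and Klf5 are zinc finger activators that bind similar CACCC-type sequences and can stand in for one another in ES cell self-renewal. Klf2 was read at 318 and 304 CPM with DMSO and at 70.2 and 63.4 CPM with the compound, and at 280.5 and 334 CPM with LIF and 34.4 and 36.4 CPM without it. Both treated groups lay far below both control groups, and the control groups overlapped. Klf2 fell 4.65-fold with the compound (log2 fold change -2.22, SE 0.08, edgeR adjusted p = 4.2e-18), which left 21.5% of its DMSO level, the smallest remainder among the 10 factors. Without LIF it fell 8.70-fold (log2 fold change -3.12, SE 0.08, edgeR adjusted p = 2.3e-21).

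Klf4, also one of the original reprogramming factors, stood at 594 and 576 CPM with DMSO, 269 and 272 CPM with the compound, 373 and 419 CPM with LIF, and 14.0 and 12.1 CPM without LIF. The compound left it at 46.3% of its control (log2 fold change -1.11, SE 0.06, edgeR adjusted p = 1.9e-14) and LIF withdrawal at 3.30% (log2 fold change -4.90, SE 0.09, edgeR adjusted p = 2.9e-25). Its order relative to Klf2 was thus opposite in the 2 responses. With the compound the 95% intervals of the log2 fold change were -2.38 to -2.06 for Klf2 and -1.23 to -0.99 for Klf4, and without LIF they were -3.29 to -2.95 and -5.07 to -4.72. The difference between the 2 genes was not itself tested.

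Klf5, which also acts in the trophectoderm, was at 287 and 249 CPM with DMSO and 109.7 and 117 CPM with the compound (log2 fold change -1.24, SE 0.07, edgeR adjusted p = 2.0e-13). It was at 203 and 231 CPM with LIF and 49.1 and 48.8 CPM without (log2 fold change -2.14, SE 0.08, edgeR adjusted p = 3.1e-18). It thus kept more of its level without LIF, 22.6%, than Klf2 with 11.5% or Klf4. Beside Klf5, the summed level of 11 trophoblast markers went from 61.9 and 64.4 CPM with DMSO to 262.5 and 282 CPM with the compound, and from 27.4 and 27.8 CPM with LIF to between 1403 and 1509 CPM without it. Cdx2 supplied most of this sum with the compound (180 CPM). It already averaged 32.9 CPM in the tagged line with DMSO, against 0.794 CPM in WT cells with LIF. The keratin genes Krt8 and Krt18 supplied most of the sum without LIF (499 and 851 CPM), where Cdx2 averaged 2.12 CPM. Of 8 tested markers, 5 were called higher and 0 lower with the compound, and 7 higher and 1 lower without LIF. Over all tested genes 20.1% were called higher and 20.3% lower with the compound, and 34.0% and 34.4% without LIF. Tfap2c was lower after LIF withdrawal (mean 0.631 CPM against 3.46 CPM in the LIF group). With DMSO and with the compound Tfap2c averaged 3.64 and 3.53 CPM, and Eomes 0.360 and 0.497 CPM. Elf5 averaged 0 CPM in both WT groups and with the compound, and 0.0702 CPM with DMSO. Gata3 was at 0 in every library. Whether trophoblast cells were present, and their part in the levels of the 10 factors, was not tested.

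Tfcp2l1, a CP2-type factor and a known mediator of LIF-driven self-renewal, had 149509 reads, the most of the 10 genes. It was at 3599 and 3548 CPM with DMSO, 1028 and 1027 CPM with the compound, 3205 and 3152 CPM with LIF, and 91.4 and 100.5 CPM without LIF. The replicates lay close together and no groups overlapped. The compound left 28.7% of the control level (log2 fold change -1.80, SE 0.05, edgeR adjusted p = 7.3e-20) and LIF withdrawal 3.02% (log2 fold change -5.06, SE 0.06, edgeR adjusted p = 5.0e-28). Only 124 of the 10311 tested genes had a lower log2 fold change without LIF than Tfcp2l1, whereas 407 had one with the compound.

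Prdm14, a PR-domain protein that holds down FGF receptor and DNA methyltransferase genes in ES cells and is also required in germ cells, was at 117 and 122 CPM with DMSO and 46.9 and 42.6 CPM with the compound. It was at 105.8 and 108.0 CPM with LIF and at 6.49 and 6.55 CPM without. Its level was 2.67-fold lower with the compound (log2 fold change -1.42, SE 0.08, edgeR adjusted p = 4.8e-14) and 16.4-fold lower without LIF (log2 fold change -4.03, SE 0.11, edgeR adjusted p = 2.0e-21). With Tfcp2l1 and Klf4 it makes up the group of well-counted factors that had the largest falls without LIF.

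Zfp42, which encodes the YY1-related zinc finger protein REX1, a classic reporter of the naive state, was at 503 and 516 CPM with DMSO and 237 and 232 CPM with the compound. It was at 472 and 453 CPM with LIF and 69.6 and 64.2 CPM without. Zfp42 fell 2.17-fold with the compound (log2 fold change -1.12, SE 0.05, edgeR adjusted p = 3.7e-15) and 6.88-fold without LIF (log2 fold change -2.78, SE 0.06, edgeR adjusted p = 3.9e-23).

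Promoter windows of RefSeq (GRCm38.p6, 250 bases before to 50 after the start of transcription) were matched by symbol for 7 of the 10 genes, with 2 windows for Nr5a2; Klf5, Prdm14 and Tbx3 had no entry. Both strands were searched for 4 motifs: the octamer ATGCAAAT, known as the OCT4 binding sequence, the KLF box CCCCACCC, the STAT motif TTCNNNGAA and the orphan receptor motif CAAGGTCA, known from NR5A2 and ESRRB. These letters occur in 1.74%, 9.99%, 8.30% and 1.56% of all 32851 windows. Among the 8 windows of the factors only that of Zfp42 held a match. It has an octamer on the opposite strand and a KLF box on the gene's strand. Read along the gene's strand, the octamer match begins at -186 and the KLF match at -159. Positions are counted from the start site (the base before the start is -1), and the 2 matches do not overlap. The Zfp42 stretch is shown because it holds both matches, and those of Klf4 and Tfcp2l1 because these genes had the lowest remainders without LIF among the factors with 1 accession. The stretches are 250 bases upstream, 5′ to 3′ on the gene's strand, at chr8:43307010-43307259 (minus strand) for Zfp42, chr4:55532476-55532725 (minus strand) for Klf4 and chr1:118627695-118627944 (plus strand) for Tfcp2l1, with motif matches in capitals.
Zfp42: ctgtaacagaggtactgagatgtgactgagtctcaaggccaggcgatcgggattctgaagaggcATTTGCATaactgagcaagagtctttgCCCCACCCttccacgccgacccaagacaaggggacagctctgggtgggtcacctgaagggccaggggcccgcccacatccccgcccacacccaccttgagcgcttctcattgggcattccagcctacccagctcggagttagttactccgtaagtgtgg
Klf4: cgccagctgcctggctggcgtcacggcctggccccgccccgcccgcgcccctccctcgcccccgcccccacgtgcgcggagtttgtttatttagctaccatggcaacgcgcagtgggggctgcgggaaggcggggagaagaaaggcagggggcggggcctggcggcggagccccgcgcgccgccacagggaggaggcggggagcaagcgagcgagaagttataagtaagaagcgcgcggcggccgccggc
Tfcp2l1: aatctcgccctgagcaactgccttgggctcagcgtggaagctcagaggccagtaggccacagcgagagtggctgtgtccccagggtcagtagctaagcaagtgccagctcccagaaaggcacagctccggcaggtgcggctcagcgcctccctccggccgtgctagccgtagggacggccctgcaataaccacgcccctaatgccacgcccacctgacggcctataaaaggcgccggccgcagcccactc
The Klf4 stretch is 74.0% G and C with 32 CpG dinucleotides, that of Tfcp2l1 65.2% with 16, and that of Zfp42 58.4% with 9, beside medians of 52.4% and 6 over all windows. A match describes the letters in this window and is no measurement of binding, and its absence says nothing about enhancers outside the window.

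Nr0b1 and Nr5a2 encode orphan nuclear receptors. Nr0b1 (DAX1) lacks the usual DNA-binding domain and acts through other factors, among them OCT4 and NR5A2, and Nr5a2 (LRH-1) can activate Pou5f1. Nr0b1 was at 49.0 and 43.6 CPM with DMSO and 21.2 and 20.7 CPM with the compound (log2 fold change -1.13, SE 0.11, edgeR adjusted p = 2.6e-09). It was at 57.2 and 63.1 CPM with LIF and 7.85 and 6.27 CPM without (log2 fold change -3.05, SE 0.13, edgeR adjusted p = 2.0e-17). Groups did not overlap in either comparison.

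Nr5a2 was counted with 7 and 17 reads with DMSO, 3 and 11 with the compound, 22 and 15 with LIF, and 0 and 1 without LIF. The libraries with DMSO and with the compound overlapped, and no change was called with the compound (log2 fold change -0.73, SE 0.55, edgeR adjusted p = 0.31) with a 95% interval of -1.86 to 0.40. The value was -0.08 without OCT4-FKBP dTAG replicate 1 and -1.93 (edgeR adjusted p = 0.077) without OCT4-FKBP dTAG replicate 2. Without LIF it fell (edgeR adjusted p = 1.9e-05), with 37 reads against 1, a 35.5-fold lower rate (exact 95% interval 6.00 to 1440, counting error only). The fitted log2 fold change of -4.83 became -3.64 without WT no LIF replicate 1 (edgeR adjusted p = 0.0060), and without WT no LIF replicate 2 no read was left in that group.

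Gbx2, a homeobox factor and STAT3 target, and Tbx3, a T-box factor linked to PI3K signalling in ES cells, were less abundant in reads. Gbx2 was at 20.9 and 21.0 CPM with DMSO, 15.9 and 14.6 CPM with the compound, 18.1 and 17.3 CPM with LIF, and 5.29 and 5.73 CPM without LIF. It kept the largest share of its level in both responses, 72.7% and 31.1% of the control. Its fall with the compound (log2 fold change -0.46, SE 0.13, edgeR adjusted p = 0.0049) lost its call in DESeq2 (adjusted p = 0.073) and without OCT4-FKBP dTAG replicate 2 (edgeR adjusted p = 0.061). Its fall without LIF (log2 fold change -1.69, SE 0.16, edgeR adjusted p = 3.5e-10) passed in all 16 alternatives.

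Tbx3 was at 6.88 and 8.27 CPM with DMSO and 2.85 and 2.995 CPM with the compound (log2 fold change -1.39, SE 0.25, edgeR adjusted p = 7.0e-05). In WT cells it was at 2.47 and 3.18 CPM with LIF and 0.256 and 0.682 CPM without, from 55 reads against 8 (log2 fold change -2.69, SE 0.46, edgeR adjusted p = 1.2e-05). This fall was -2.00 without WT no LIF replicate 1 and -3.36 without WT no LIF replicate 2, called in both. The libraries of the tagged line with the compound lay within the range of the parental line with LIF.

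**Figure D2:**
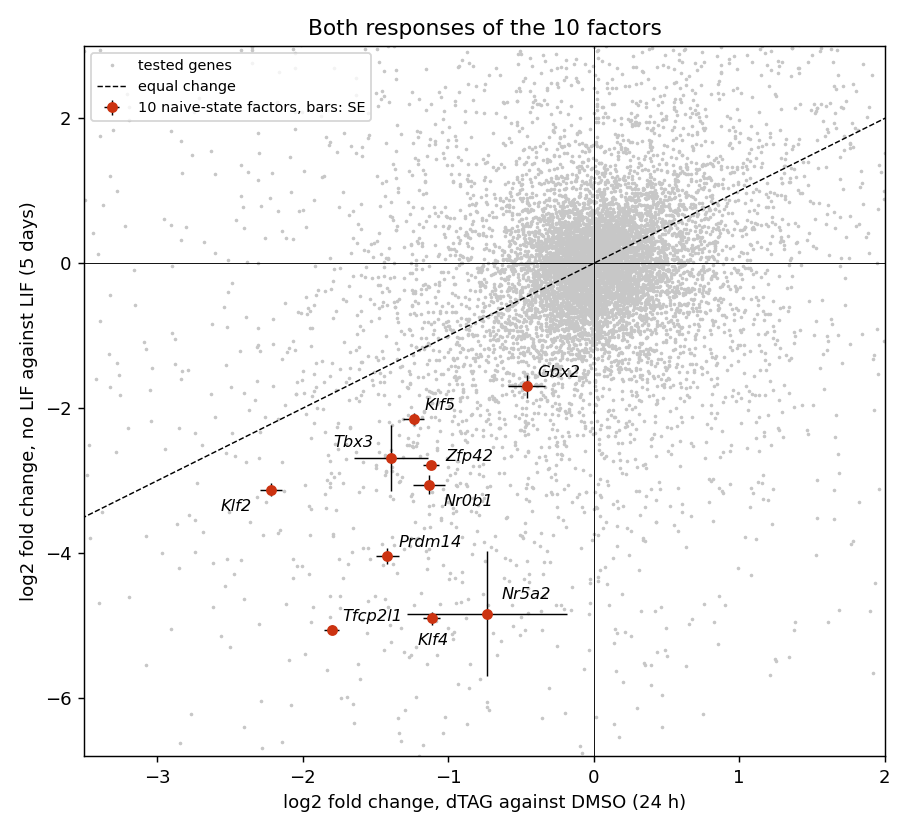
Log2 fold change with the compound (x axis) against that without LIF (y axis) for the 10 factors (red, bars are SE) and all tested genes (grey; 889 of 10311 lie outside the window), with the line of equal change dashed. All 10 factors are below 0 on both axes and below the dashed line.

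The 2 responses differ in line, agent and time, 24 h against 5 days, so their sizes are set side by side as measured. The difference of the 2 log2 fold changes passed for 9 of the 10 factors, all with the smaller fall after the compound; 28.6% of tested genes were called in that direction. It was largest among the factors with 1 accession for Klf4 (3.79, 95% interval 3.57 to 4.01), Tfcp2l1 (3.26, interval 3.10 to 3.42) and Prdm14 (2.62, interval 2.32 to 2.91). Nr0b1 (1.92), Zfp42 (1.66) and Gbx2 (1.24) lay between, and Klf2 (0.90, interval 0.66 to 1.14) and Klf5 (0.91, interval 0.68 to 1.13) differed least. For Tbx3 the difference of 1.29 (interval 0.12 to 2.46) missed the threshold (edgeR adjusted p = 0.056) and ranged from 0.61 to 1.97 over the alternatives (adjusted p = 0.028 to 0.47), passing in 3. Leaving out WT no LIF replicate 1 gave the lowest value, 0.61 (edgeR adjusted p = 0.47), and leaving out WT no LIF replicate 2 the highest, 1.97 (adjusted p = 0.028). That of Nr5a2 (4.10, interval 1.71 to 6.49, edgeR adjusted p = 0.0041) was not called without OCT4-FKBP dTAG replicate 2 (2.90, adjusted p = 0.13) or without WT no LIF replicate 1 (2.91, adjusted p = 0.080). Across the 10 factors the 2 log2 fold changes had a Pearson r of 0.22 and a Spearman rho of 0.26. Over the 8 factors with 1 accession these were 0.46 and 0.48. Both are a description over genes measured in the same libraries.

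The tagged line with DMSO and the WT line with LIF, the starting points of the 2 responses, were also compared; this comparison shares its libraries with both others, and tag, clone, DMSO and culture cannot be told apart in it. Pou5f1, the gene of the tagged OCT4, was at 77.5 and 77.8 CPM in the tagged line with DMSO and at 425 and 336 CPM in WT cells with LIF (log2 fold change -2.30, SE 0.09, edgeR adjusted p = 3.5e-16). That is a larger difference than any of the 10 factors showed between the lines, in a gene with 2 accessions that is seen only through the sequence telling them apart. With the compound Pou5f1 was at 84.6 and 90.2 CPM and was not called (log2 fold change 0.17, SE 0.10, edgeR adjusted p = 0.18). Of the 10 factors 5 were higher in the tagged line and 1 lower, against 18.5% and 22.1% of tested genes. Tbx3 was 2.75-fold higher (log2 fold change 1.46, SE 0.25, edgeR adjusted p = 4.5e-05), Klf4 1.48-fold (0.56, SE 0.06, edgeR adjusted p = 1.8e-08) and Klf5 1.23-fold (0.30, SE 0.07, edgeR adjusted p = 0.0010). Tfcp2l1 and Zfp42 were higher by small amounts, with log2 fold changes of 0.17 and 0.14 (edgeR adjusted p = 0.0085 and 0.035). The call of Zfp42 was lost without OCT4-FKBP DMSO replicate 2 (adjusted p = 0.13) and with at least 5 CPM in 2 libraries (adjusted p = 0.052). Nr0b1 was lower (-0.38, SE 0.09, edgeR adjusted p = 0.0019), a call lost without OCT4-FKBP DMSO replicate 2 (-0.26, adjusted p = 0.12). Klf2, Prdm14, Gbx2 and Nr5a2 were not called, with 95% intervals of -0.12 to 0.16, 0.02 to 0.31, -0.01 to 0.50 and -1.45 to 0.40. For Klf2 the value was -0.11 without WT LIF replicate 1 and 0.18, called at adjusted p = 0.019, without WT LIF replicate 2, and Prdm14 passed in 6 of 16 alternatives (adjusted p = 0.036 to 0.049).

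**Figure D3:**
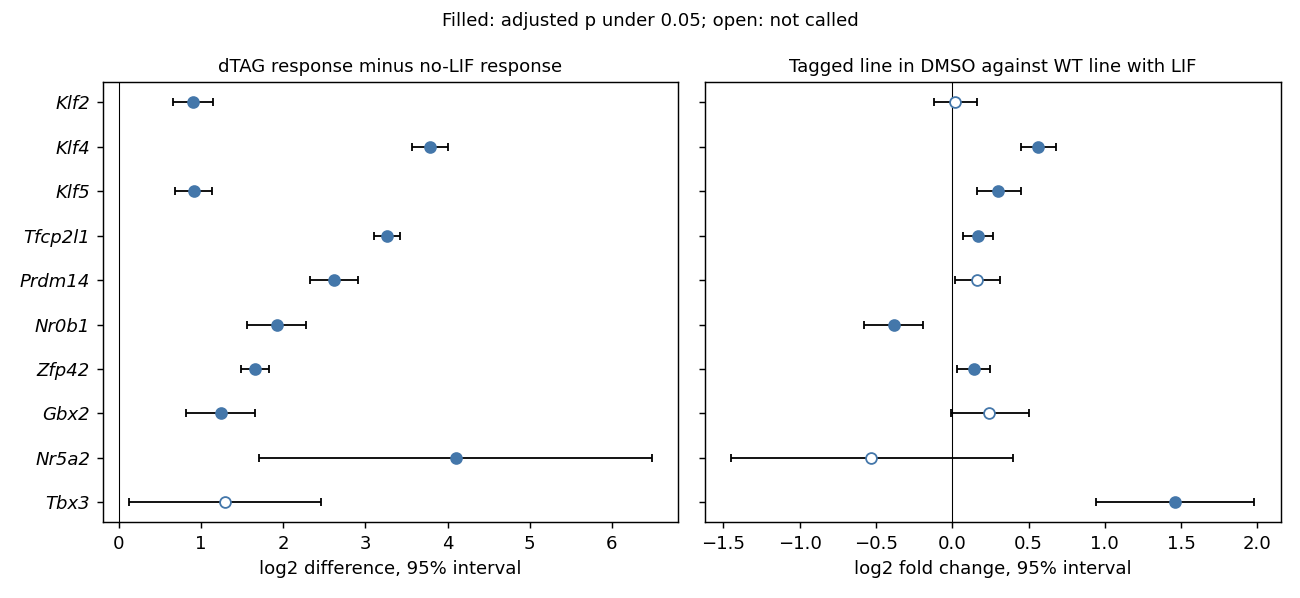
Log2 difference between the 2 responses (left) and log2 fold change of the tagged line with DMSO against WT with LIF (right) for each factor, with 95% intervals; filled points passed an adjusted p of 0.05. On the left all points lie above 0, from 0.90 for Klf2 to 4.10 for Nr5a2, and on the right Tbx3 stands apart at 1.46.

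Close relatives of the factors were read beside them, from a list of 35 family members of which 23 could be tested. With the compound 2 rose and 8 fell (median log2 fold change -0.06), and without LIF 11 rose and 12 fell (median -0.21). The shares over all tested genes were 20.1% higher and 20.3% lower with the compound, and 34.0% and 34.4% without LIF. Of the 8 that fell with the compound, Klf15, Klf11, Klf9, Klf16, Klf8 and Tbx20 also fell without LIF, while Grhl2 and Klf12 rose. Klf15 had log2 fold changes of -0.94 and -1.09, Tbx20 -0.61 and -0.82, Klf11 -0.59 and -0.21, and Klf12 -0.63 and 2.23. The relatives that fell in both were named after their values were seen. Grhl3, a grainyhead factor of the wider CP2 family and known for epidermal barrier formation, went from 83.3 ± 1.15 to 201 ± 11.6 CPM with the compound (SD, n = 2; log2 fold change 1.27, edgeR adjusted p = 2.7e-14) and from 103.6 ± 2.41 to 21.4 ± 1.14 CPM without LIF (-2.26, edgeR adjusted p = 2.7e-18). Its relative Grhl2, an epithelial regulator, rose from 3.93 ± 0.435 to 97.2 ± 4.72 CPM without LIF (log2 fold change 4.64, edgeR adjusted p = 4.1e-21). With the compound Grhl2 fell from 7.29 to 4.30 CPM (log2 fold change -0.74, edgeR adjusted p = 0.0031). Klf6, a broadly expressed Kruppel-like factor, rose with the compound from 118.0 ± 3.24 to 209 ± 0.604 CPM (log2 fold change 0.82, edgeR adjusted p = 9.5e-12). Without LIF it also rose, with a log2 fold change of 1.06 (edgeR adjusted p = 3.2e-15). Yy1, the relative of Zfp42, was at 233 and 242 CPM on average with DMSO and with the compound (log2 fold change 0.06, edgeR adjusted p = 0.47), and rose from 198 to 234 CPM without LIF (log2 fold change 0.24, edgeR adjusted p = 0.00068).

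Other genes of the naive state moved mostly downward with the 10 factors. Of 11 tested, 8 fell and 2 rose with the compound (median log2 fold change -0.81), and 9 fell and 1 rose without LIF (median -2.33). Among all tested genes 20.3% fell and 20.1% rose with the compound, and 34.4% fell and 34.0% rose without LIF. Jam2, a junctional adhesion molecule, went from 480.4 ± 4.17 to 29.6 ± 0.591 CPM with the compound and from 345 ± 25.9 to 7.29 ± 0.293 CPM without LIF, log2 fold changes of -4.02 and -5.57. Fgf4, the FGF ligand of ES cells, had -2.30 with the compound and -2.33 without LIF. Tdh, the threonine dehydrogenase on which mouse ES cells depend, had -0.94 with the compound and -3.64 without LIF. The 2 that rose with the compound were Sox15 (0.78) and Dppa2 (0.38), named after their values were seen.

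Core pluripotency partners did not share one direction. Of 10 tested, 7 fell and 1 rose with the compound (median log2 fold change -0.85), while 3 fell and 6 rose without LIF (median 0.94). Over all tested genes the shares were 20.3% and 20.1% with the compound, and 34.4% and 34.0% without LIF. Tdgf1, the Nodal co-receptor, had log2 fold changes of -3.59 with the compound and 0.68 without LIF (edgeR adjusted p = 1.3e-22 and 2.2e-10). Lin28a, which blocks let-7 maturation, had 2.42 with the compound and 4.43 without LIF.

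Of 16 LIF pathway genes, 7 could be tested and Lifr, Jak2 and Stat3 were among those that could not. With the compound 5 fell and 2 rose (median log2 fold change -0.45), and without LIF 3 fell and 1 rose (median -0.12). Beside these counts, 20.3% of all tested genes fell and 20.1% rose with the compound, and 34.4% and 34.0% without LIF. Socs3, the feedback inhibitor induced by STAT3, went from 257 ± 2.01 to 27.98 ± 1.31 CPM without LIF (log2 fold change -3.21, edgeR adjusted p = 3.9e-23). With the compound it rose from 176 to 226 CPM on average (log2 fold change 0.36, edgeR adjusted p = 1.2e-05), where the STAT3 targets Klf4, Tfcp2l1 and Gbx2 fell. Bcl3, another LIF-induced gene, had -4.48 without LIF and -0.45 with the compound. Il6st, which encodes gp130, fell in both, by 0.77 and 0.78 on the log2 scale, and the kinase gene Jak1 rose with the compound (0.36).

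Genes of neighbouring states and of the pathways on which the 2i inhibitors act were read in the same fit. The counts of these lists stand beside shares over all tested genes. Those were 20.1% higher and 20.3% lower with the compound, and 34.0% and 34.4% without LIF. Of 11 tested formative genes 10 rose and none fell without LIF (median log2 fold change 3.86), whereas 1 rose and 4 fell with the compound (median -0.58). The kinase gene Pim2 had 4.48 and the neural and formative factor Sox11 3.41 without LIF, and with the compound Sox11 had 2.60 and Zic2, a zinc finger factor of the formative state, -2.05. Of 10 FGF-ERK feedback genes 8 rose and 1 fell without LIF (median 1.45), led by the ERK phosphatase gene Dusp6 (5.47) and the inhibitor gene Spry4 (5.13). With the compound 3 rose and 2 fell (median -0.32), among them Phlda1, an ERK-induced gene (4.70), and Spry2, an inhibitor of receptor signalling (-1.22). The labels give 2i medium for all cells and do not say whether the inhibitors stayed during LIF withdrawal, so a change of medium and the loss of LIF cannot be told apart for the 10 factors. Of 10 Wnt targets 7 rose and 1 fell with the compound (median 1.33), with the feedback inhibitor gene Axin2 at 2.42 and the factor gene Sp5 at 2.46. Without LIF 2 rose and 4 fell (median -0.01), with the homeobox gene Cdx1 at -5.06 and the cyclin gene Ccnd1 at 1.40.

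**Figure D4:**
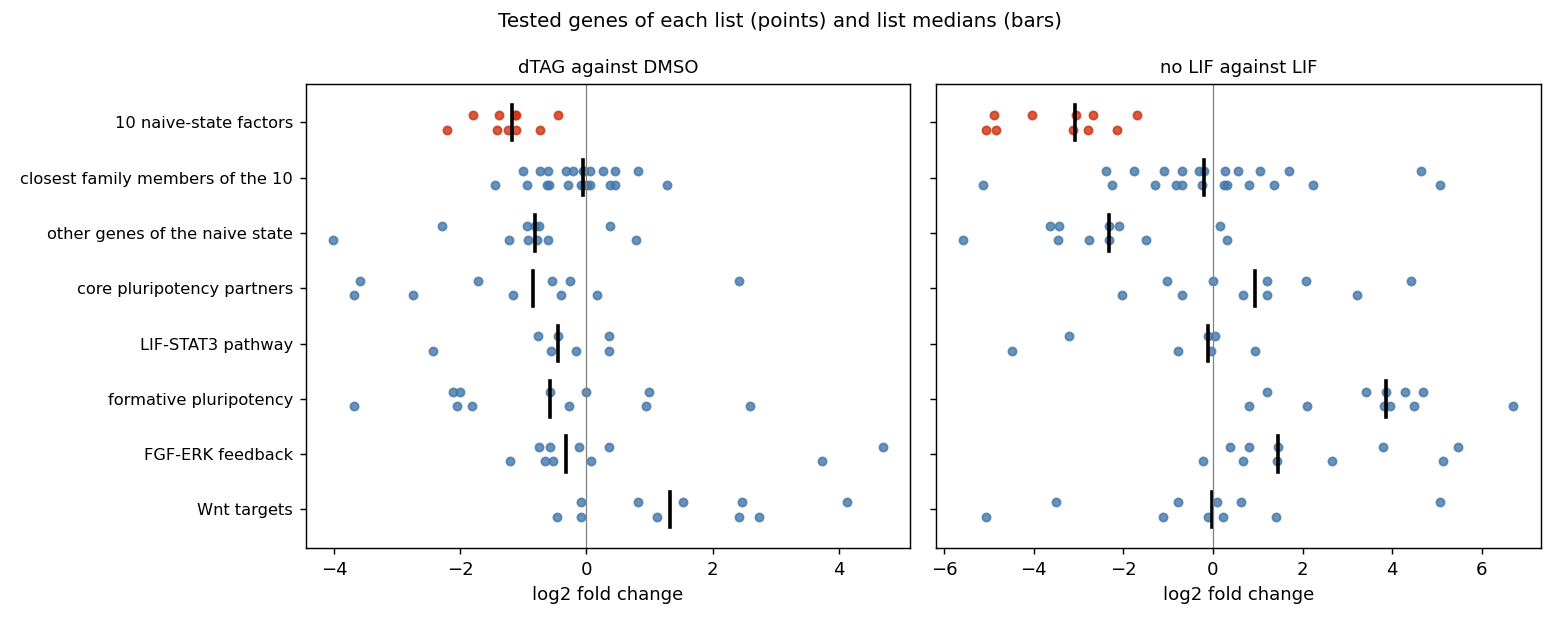
Log2 fold changes of the tested genes of each list (points, shifted vertically only for display) and list medians (bars) with the compound (left) and without LIF (right). The 10 factors (red) lie between -2.22 and -0.46 on the left and between -5.06 and -1.69 on the right, while the family members lie on both sides of 0.

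Markers of other cells moved most in the libraries without LIF. The summed level of 10 fibroblast markers was 11.5 and 11.7 CPM with LIF and between 869.8 and 912 CPM without it, nearly all from the smooth muscle genes Tagln (744 CPM) and Acta2 (127 CPM), while Dcn and Postn were at 0 in every library. That of 9 primitive endoderm markers went from 2.47 and 2.83 CPM to between 64.2 and 69.4 CPM without LIF, mostly Cubn (60.1 CPM), and from 0.983 and 1.76 CPM to between 18.0 and 21.7 CPM with the compound, mostly Gata6 (18.7 CPM), with Gata4 and Foxa2 at 0. Whether such cells were present, and their part in the falls of the 10 factors, was not tested.

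For each factor, the other gene with the most similar set of 3 log2 fold changes (compound, LIF withdrawal, line) was found among 7041 genes with a mean of at least 5 CPM, by Euclidean distance. Distances ranged from 0.10 for Gbx2 and Tspan17, a tetraspanin gene, to 0.37 for Nr5a2 and the keratin gene Krt42. Phf11d was nearest to Klf4 (0.21), Serpinb6c to Tfcp2l1 (0.32), Itpka, an inositol trisphosphate kinase gene, to Prdm14 (0.16), Rab38 to Klf2 (0.26) and Angptl4 to Klf5 (0.24). Ppp1r3b was nearest to Nr0b1 (0.16), Nfatc2ip to Zfp42 (0.33) and Cemip to Tbx3 (0.31). The search picked these genes for their closeness, so the distances are a description only. Phf11d, for example, averaged 166 CPM with DMSO, 79.8 with the compound, 109.4 with LIF and 4.23 without. Its log2 fold changes were -1.06, -4.69 and 0.61 where Klf4 had -1.11, -4.90 and 0.56.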

How the data were processed

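Each library has 1 table of raw counts per RefSeq transcript accession, as deposited by the authors. HISAT2, HTSeq and mm9 are named, with no version, per the submitters' processing notes. HTSeq's strand option was not given in the sources used here, so overlapping antisense genes cannot be told apart. Reads shared by several accessions were set aside as ambiguous, 42.5% of counted plus ambiguous reads. The counts of a symbol's accessions were added up (41451 of 41565 accessions were paired through RefSeq GRCm38 and GENCODE tables, used for names only). HTSeq's summary lines stayed out of library sizes; reads with no feature were 10.4% to 14.9% of uniquely aligned ones. edgeR 4.0.16 (R 4.3.3) used TMM, filterByExpr, glmQLFit and glmQLFTest over all 8 libraries in 4 groups, with 4 residual degrees of freedom. The common biological coefficient of variation over all genes was 4.43%. Tests and intervals also borrowed spread from other genes, so they rest on more than 4 degrees of freedom. P-values were adjusted by Benjamini-Hochberg over 10311 genes and called at 0.05; the SE was taken as log2 fold change over the root of F. In every group the replicates differed beyond sampling noise. Intervals cover 95%.

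Members, lists and tests were chosen with earlier results of these data known. Named genes were the 10 factors, the nearest gene of each by distance, and the 2 list members of smallest adjusted p in each of the first 2 comparisons; others are named for contrast after their values were seen, and 1 gene taken by this rule is not reported here. Alternatives were DESeq2 1.42.0, other scalings and filters, each accession alone, only the libraries compared, a replicate block and each library left out. A planned comparison of protein sequences was not run.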

Additional observations from a re-analysis of the deposited data

How the results depend on the processing

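Under the 16 alternatives, counts of called genes and of called factors stayed within 1.5 times those reported. Of 626 values of single factors under an alternative, 608 kept their direction and their side of the threshold, 7 lost a call, 10 gained one and 1 changed sign. The sign change was Klf2 in the tagged line with DMSO against WT with LIF, at -0.11 without WT LIF replicate 1, beside 0.18 without WT LIF replicate 2 and 0.02 as reported. With 1 library left out, the factors called ranged from 8 to 9 with the compound, stayed at 10 without LIF, and ranged from 8 to 10 for the difference of responses and from 4 to 8 for the comparison of lines; leaving out a library of a compared group leaves that group with 1, assumed to vary like the other groups. With at least 5 CPM in 2 libraries Nr5a2 was not tested. Same-numbered libraries showed no shared deviation (correlations from -0.002 to 0.049 over 6 pairs of groups). Counting noise also lowers such correlations, so the check cannot tell whether same-numbered libraries were prepared together. With a replicate block 4214, 7082, 5690 and 4205 genes were called with the compound, without LIF, for the difference and between lines. The counts as reported were 4175, 7056, 5671 and 4191, and no call of the 10 factors changed. Depth limits Nr5a2 and Tbx3, which had 1 and 8 reads without LIF.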
